A study of Mus musculus with 100 samples.

Results

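Acetylated lysine 27 of histone H3 (H3K27ac), which marks promoters and enhancers in use, was compared between resting mouse macrophages that lacked the nuclear receptor corepressor NCoR and their controls. The cells were bone marrow-derived macrophages (BMDMs) of the C57Bl6 strain. Control cells (WT) carried floxed alleles of the NCoR gene (genotype NCoR flox/flox) and no Cre. Knockout cells (NKO) carried the same floxed alleles together with LysMCre, a Cre recombinase expressed from the lysozyme locus in myeloid cells, so that deletion was limited to cells in which this locus was active and could be incomplete. Both groups were treated with vehicle (Veh), and each was represented by 2 libraries from biological replicates. The same table held 4 further libraries of WT and NKO cells treated for 6 h with KLA (Kdo2 lipid A), which activates TLR4. These 4 of the 100 samples of the series, with the 4 KLA libraries beside them, were read by chromatin immunoprecipitation and sequencing (ChIP-seq) over regions of open chromatin. Regions were included when at least 1 of the 8 libraries held 16 or more tags, and 18504 of the 24867 listed regions met this minimum. Just above the minimum, at 16 to 19 tags in the highest library, 1572 regions had median levels of 5.59 tags per 10M tags of the library (tags per 10M) in WT and 6.51 in NKO with Veh. Just below it, at 12 to 15 tags, 1747 regions had medians of 4.00 and 4.59.

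NCoR is a scaffold that nuclear receptors such as the liver X receptors (LXRs), the retinoic acid receptors and the peroxisome proliferator-activated receptors (PPARs) recruit when they are not bound by an agonist. It carries the histone deacetylase HDAC3, whose catalytic activity depends on the corepressor, together with TBL1X, TBLR1 and GPS2. In macrophages the complex is known for holding down LXR target genes of cholesterol efflux and fatty acid desaturation and, through other transcription factors, genes of the inflammatory response. A region at which this repression is lost is therefore a place where H3K27ac may be looked for, although the mark is not a measurement of transcription. Genes named here are those with the transcription start site (TSS) nearest to the region, as listed in the table, and the nearest gene need not be the one that a distal region regulates.

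Of the 18504 regions, 180 were called higher in NKO than in WT with Veh (0.973% of those tested) and 5 were called lower (0.0270%). Regions were called when edgeR gave an adjusted p-value below 0.05 and the difference exceeded 2-fold, with each library scaled by its total number of tags. The regions called higher lay nearest to 172 genes. Among them were regions of the fatty acid desaturase genes Scd1 and Scd2, the cholesterol exporter gene Abca1, the stress response gene Gadd45b, the chemokine genes Ccl2 and Ccl3 and the retinoic acid receptor gene Rara. When the libraries were instead centred by TMM (the trimmed mean of M-values, computed on the tested regions), 25 regions were called higher (0.135%) and 15 lower (0.0811%). All 25 were among the 180, and the 5 regions called lower by library totals were among the 15. The median fold difference of the 180 regions was 2.69 (median log2 difference 1.42, against 0.30 over all regions tested).

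By library totals the distribution of differences was shifted above 0. NKO libraries with Veh held 7.18% and 6.55% of their tags in the listed regions, and WT libraries with Veh held 5.55% and 5.66%, while all 4 KLA libraries held between 6.20% and 6.70%. In that scaling 74.8% of the tested regions were above 0, and the median difference over all regions was 1.23-fold. With TMM 50.4% were above 0 and the median was 0.00 on the log2 scale. Whether the higher share of tags in regions belongs to the genotype or to these 2 libraries was not tested, and a general increase of the mark and a better enrichment of the NKO libraries with Veh cannot be told apart. Regions called by both scalings are described first, and a value by library totals is to be read against the shift of 0.30. Both sets of counts rested on single libraries. A fit without a library did not always call the same regions, so a similar count does not mean a similar set. Without WT Veh replicate 1, 25 regions were called higher and 1 lower, without WT Veh replicate 2 there were 8 and 0, and without NKO Veh replicate 1 there were 32 and 1. Without NKO Veh replicate 2 there were 204 and 7. With TMM the 25 regions higher became 0 without WT Veh replicate 1 (395 by edgeR with unadjusted p-values below 0.05 and over 2-fold), 2 without WT Veh replicate 2 and 10 without either NKO Veh replicate. Unadjusted differences in these TMM fits went in both directions. In all 180 regions both NKO libraries lay above both WT libraries, which the calls fix, and the same held for 41.5% of all tested regions.

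**Figure D1:**
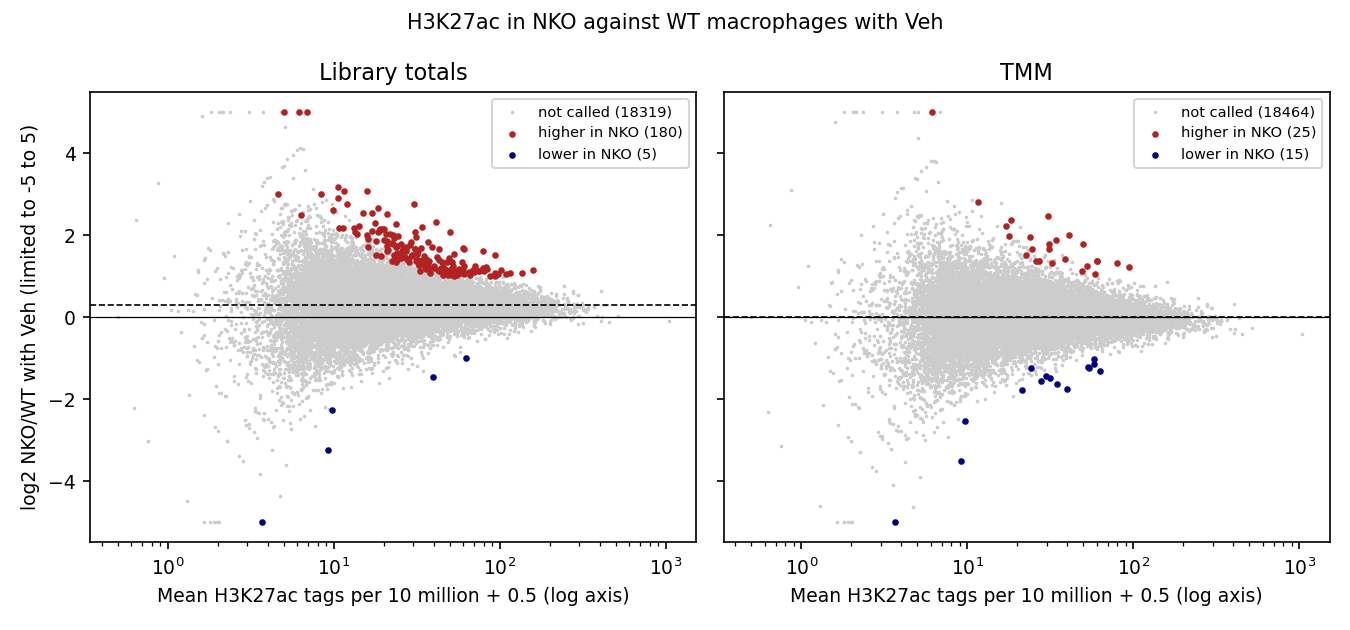
Each point is 1 of the 18504 tested regions, with the mean H3K27ac level of the 4 Veh libraries (tags per 10M plus 0.5, log axis) on the horizontal axis and the log2 difference of NKO against WT with Veh, limited to the range of -5 to 5, on the vertical axis. By library totals (left) 180 regions were higher and 5 lower, and with TMM (right) 25 were higher and 15 lower; the dashed line is the median over all regions, 0.30 on the left and 0.00 on the right.

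Some sequences are printed before the values, because the regions differ in the nuclear receptor and AP-1 elements that they hold. Each is the 201 bases around the centre of a region in the mouse assembly GRCm38.p6 (mm10), read on the plus strand, with a match to a motif in capitals. The first pair lies downstream of Gadd45b (chr10:80940729-80940929 and chr10:80932425-80932625) and holds matches to DR1, a direct repeat of the element AGGTCA spaced by 1 base, with 2 mismatches. The match of the second is on the minus strand. The region upstream of Ccl2 (chr11:82023822-82024022) holds an AP-1 element, TGANTCA. The region upstream of Abcg1 (chr17:31039692-31039892) holds a match to DR4, the repeat spaced by 4 bases that LXR heterodimers bind, on the minus strand and with 2 mismatches. The region downstream of the TSS of Scd1 (chr19:44388538-44388738), past the end of the gene, held none of these 3 motifs in this window.
Gadd45b, 10.7 kb downstream of the TSS: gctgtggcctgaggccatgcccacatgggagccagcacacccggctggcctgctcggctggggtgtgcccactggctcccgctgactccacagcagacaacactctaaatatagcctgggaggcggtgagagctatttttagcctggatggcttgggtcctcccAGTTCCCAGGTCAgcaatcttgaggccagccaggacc
Gadd45b, 2.43 kb downstream of the TSS: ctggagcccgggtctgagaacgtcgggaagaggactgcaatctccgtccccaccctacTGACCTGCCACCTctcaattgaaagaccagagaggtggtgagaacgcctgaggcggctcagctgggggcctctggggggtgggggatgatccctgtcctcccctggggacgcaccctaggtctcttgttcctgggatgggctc
Ccl2, 11.7 kb upstream of the TSS: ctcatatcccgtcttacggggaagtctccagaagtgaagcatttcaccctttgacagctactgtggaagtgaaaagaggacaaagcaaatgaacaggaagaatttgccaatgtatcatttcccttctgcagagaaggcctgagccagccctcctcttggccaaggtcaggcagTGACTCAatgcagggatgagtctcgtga
Abcg1, 17.9 kb upstream of the TSS: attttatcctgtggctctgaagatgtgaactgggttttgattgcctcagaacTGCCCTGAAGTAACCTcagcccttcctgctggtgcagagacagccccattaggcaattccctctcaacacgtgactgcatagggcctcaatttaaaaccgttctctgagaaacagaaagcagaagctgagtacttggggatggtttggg
Scd1, 19.1 kb downstream of the TSS: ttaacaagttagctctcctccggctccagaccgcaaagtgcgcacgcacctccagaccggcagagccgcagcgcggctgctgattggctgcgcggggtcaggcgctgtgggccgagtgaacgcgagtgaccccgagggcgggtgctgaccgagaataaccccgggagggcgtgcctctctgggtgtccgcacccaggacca

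The desaturase genes held the clearest differences among genes of lipid metabolism. Scd1 and Scd2 encode stearoyl-CoA desaturases, which introduce a double bond into saturated fatty acids, and both are LXR targets on chromosome 19. In the 5′ UTR of Scd2 (chr19:44293786-44294157) H3K27ac was 9.46 and 6.11 tags per 10M in the WT libraries and 45 and 59.2 in the NKO libraries, a 6.75-fold difference (2.76 ± 0.42 (SE) on the log2 scale, edgeR adjusted p = 9.44e-05 by totals and 0.00191 with TMM). A region 9.42 kb upstream of Scd2 had 3.15 and 10.7 in WT and 33.2 and 31.3 in NKO (4.47-fold, edgeR adjusted p = 0.00973). The most distant, 26.6 kb upstream of Scd2, had 10.1 and 9.68 in WT and 31.7 and 29.6 in NKO (3.09-fold, edgeR adjusted p = 0.0493). At the Scd1 region whose sequence is given above (chr19:44388418-44388859) the WT libraries had 15.8 and 11.2 and the NKO libraries 78.2 and 56.9 (5.01-fold, 2.33 ± 0.36 (SE) on the log2 scale, edgeR adjusted p = 0.000119 by totals and 0.00207 with TMM). The 2 upstream regions of Scd2 lost their calls with TMM (edgeR adjusted p = 0.0697 and 0.296).

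Abca1 encodes the transporter that passes cholesterol to apolipoproteins. In its first intron (chr4:53158648-53158929, 1107 bp from the TSS) the WT libraries had 20.2 and 32.6 tags per 10M and the NKO libraries 73.0 and 64.4 (2.57-fold, log2 difference 1.36, SE 0.29, edgeR adjusted p = 0.00712), and this call was lost with TMM (edgeR adjusted p = 0.102). Abcg1, which exports cholesterol to lipoprotein particles, had 4 tested regions and 0 calls by edgeR with Veh, with values of 1.06 to 1.95 on the log2 scale. At the region 17.9 kb upstream (chr17:31039659-31039925) WT had 21.4 and 15.3 and NKO 44.2 and 32.5 (log2 difference 1.06, SE 0.37, edgeR adjusted p = 0.123). Both NKO libraries lay above both WT libraries there, as at 41.5% of all tested regions, and the difference did not pass the threshold.

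The LXR target list held 22 genes, of which 15 had 38 tested regions. Of these 38 regions 5 were called higher by library totals (Scd2 at 3 regions, Scd1 and Abca1), 2 with TMM, and 0 were called lower by either (with unadjusted p-values below 0.05, 14 were higher and 0 lower, against 15.1% and 0.897% of all tested regions, and the DESeq2 Wald test with library totals called 3). Their median log2 difference was 0.63, against 0.30 over all tested regions, and 0.34 with TMM, against 0.00. Above 0 lay 32 of the 38 regions by library totals and 26 with TMM, against 74.8% and 50.4% of all tested regions. Uncalled regions of the list ranged widely. The first intron of Smpdl3a, a phosphodiesterase gene, had, 243 bp from the TSS, 178 and 183 in WT and 300.1 and 315 in NKO (1.70-fold, edgeR adjusted p = 0.000782), below the fold that a call required. The region 1.76 kb upstream of Nr1h3, which encodes LXRα, had 80.7 and 70.8 in WT and 128 and 98.7 in NKO (log2 difference 0.58, edgeR adjusted p = 0.159). The promoter of Srebf1, the regulator of fatty acid synthesis, had 51.7 and 42.8 in WT and 73.0 and 77.8 in NKO (log2 difference 0.68, edgeR adjusted p = 0.123). At the promoter of Mertk, a receptor for the uptake of apoptotic cells, WT had 13.2 and 20.9 and NKO 7.37 and 12.8 (log2 difference -0.75, edgeR adjusted p = 0.537).

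**Figure D2:**
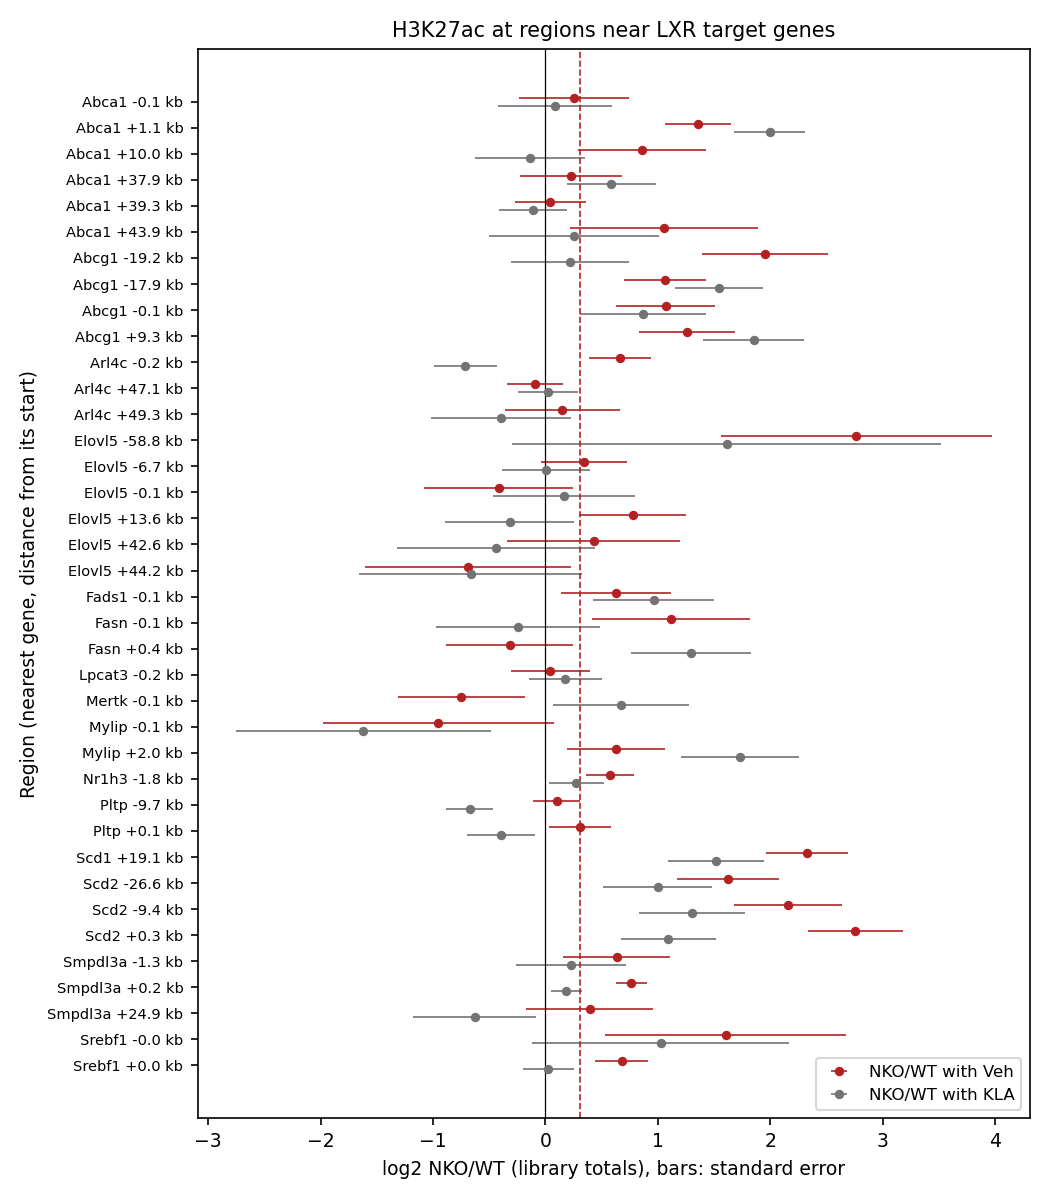
Log2 difference of NKO against WT (library totals) at the 38 tested regions near LXR target genes, with Veh in red and with KLA in grey; points are edgeR estimates, bars are standard errors, and the dashed line is the median of all tested regions with Veh, 0.30. The called Scd1 and Scd2 regions lay between 1.63 and 2.76 with Veh, an uncalled region of Elovl5 with few tags lay at 2.77, and the first intron of Abca1 and 2 regions of Abcg1 (17.9 kb upstream and in an intron) were called with KLA.

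Gadd45b, which encodes a stress-inducible protein of the MAP kinase and NFκB pathways, had 3 regions called higher. At the intergenic region 10.7 kb downstream of its TSS (chr10:80940563-80941095) the WT libraries had 50.4 and 45.8 tags per 10M and the NKO libraries 145 and 132 (2.88-fold, 1.52 ± 0.21 (SE) on the log2 scale, edgeR adjusted p = 3.53e-05 by totals and 0.00191 with TMM). Just past the end of the gene (chr10:80932391-80932659) WT had 18.3 and 17.3 and NKO 62.7 and 54.6 (3.28-fold, 1.71 ± 0.26 (SE) on the log2 scale, edgeR adjusted p = 6.95e-05 by totals and 0.00191 with TMM). Within the gene, in an exon 441 bp from the TSS, WT had 22.7 and 39.2 and NKO 64.9 and 64.4 (2.05-fold, edgeR adjusted p = 0.0120), which was not called with TMM. Scd2 and Gadd45b were the 2 genes with 3 regions called higher, and Ankrd55, Dcun1d5, G530011O06Rik and Prr5l had 2 each, while 166 genes had 1.

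Other regions called by both scalings lay near genes of kinase signaling and cell survival. At the promoter of Dusp4, a phosphatase that inactivates MAP kinases, WT had 9.46 and 2.55 tags per 10M and NKO 27.3 and 29.6 (4.90-fold, edgeR adjusted p = 0.00374). Upstream of Map4k3, a kinase gene, by 40.1 kb, WT had 12.0 and 12.7 and NKO 56.0 and 41.2 (3.89-fold, edgeR adjusted p = 0.00111). In an intron of Cflar, which encodes an inhibitor of caspase 8, WT had 9.46 and 9.68 and NKO 46.5 and 30.2 (3.95-fold, edgeR adjusted p = 0.00367). A region listed under Cox4i2 lay in an intron of Bcl2l1, the gene of the survival factor Bcl-xL, with 36.6 and 29.0 in WT and 88.5 and 79.5 in NKO (2.57-fold, edgeR adjusted p = 0.000804). The adjusted p-values of these 4 regions with TMM were between 0.0186 (Map4k3) and 0.0394 (Cflar). These genes were grouped by what they encode and not by a test of the group.

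Regions near genes of secreted factors and receptors were also called by both scalings. Ccl2 encodes a chemokine that attracts monocytes, and 11.7 kb upstream of it (chr11:82023787-82024057) WT had 8.20 and 7.64 tags per 10M and NKO 43.5 and 33.7 (4.83-fold, 2.27 ± 0.44 (SE) on the log2 scale, edgeR adjusted p = 0.00235 by totals and 0.0276 with TMM). The region listed under Csf3, the gene of granulocyte colony-stimulating factor, lay 8.04 kb from its TSS in an intron of the neighbouring gene Med24. It had 15.1 and 15.8 in WT and 50.1 and 45.9 in NKO (3.08-fold, edgeR adjusted p = 0.00263). In an intron of Rara (chr11:98943392-98943621) WT had 27.7 and 24.4 and NKO 81.1 and 60.9 (2.71-fold, edgeR adjusted p = 0.00263). In the first intron of Sdc1, the gene of the cell surface proteoglycan syndecan-1, WT had 10.7 and 8.66 and NKO 31.7 and 36.6 (3.54-fold, edgeR adjusted p = 0.00416).

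The remaining regions of the 25 lay near Prr5l, Tmem165, Oit3, Dcbld2, Rassf8, Hspa12a, Wfdc21, Sestd1, Gm19689, Mir222, Mir6376 and G530011O06Rik. Apart from Sestd1, folds over the 25 regions ran from 2.57 to 8.52, the last in an intron of Dcbld2 with 3.15 and 1.53 tags per 10M in WT and 17.0 and 22.6 in NKO (edgeR adjusted p = 0.000853). In the first intron of Prr5l, a gene of an mTORC2-associated protein, WT had 11.3 and 11.7 and NKO 50.9 and 47.6 (4.24-fold, edgeR adjusted p = 0.000107). In an intron of Oit3 WT had 32.8 and 23.9 and NKO 110.0 and 72.0 (3.21-fold, edgeR adjusted p = 0.000782). Both WT libraries held 0 tags at the Sestd1 region, 61.6 kb upstream, and NKO had 5.16 and 17.4, which was at least 13.4-fold higher when WT was set at a floor of 3 tags over the group (0.845 tags per 10M). In all, 3 of the 180 regions held 0 tags in both WT libraries, and with these at their floor the median log2 differences of the 180 and of the 25 were unchanged at 1.42 and 1.96. The 2 regions listed under G530011O06Rik lay at the end of chromosome X (14.5 and 22.4 in WT against 79.6 and 80.1 in NKO, and 22.7 and 34.1 against 98.8 and 84.2). This end of the chromosome is shared with chromosome Y, where the table held 9 further regions under the same name, and the assignment of these tags is uncertain.

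**Figure D3:**
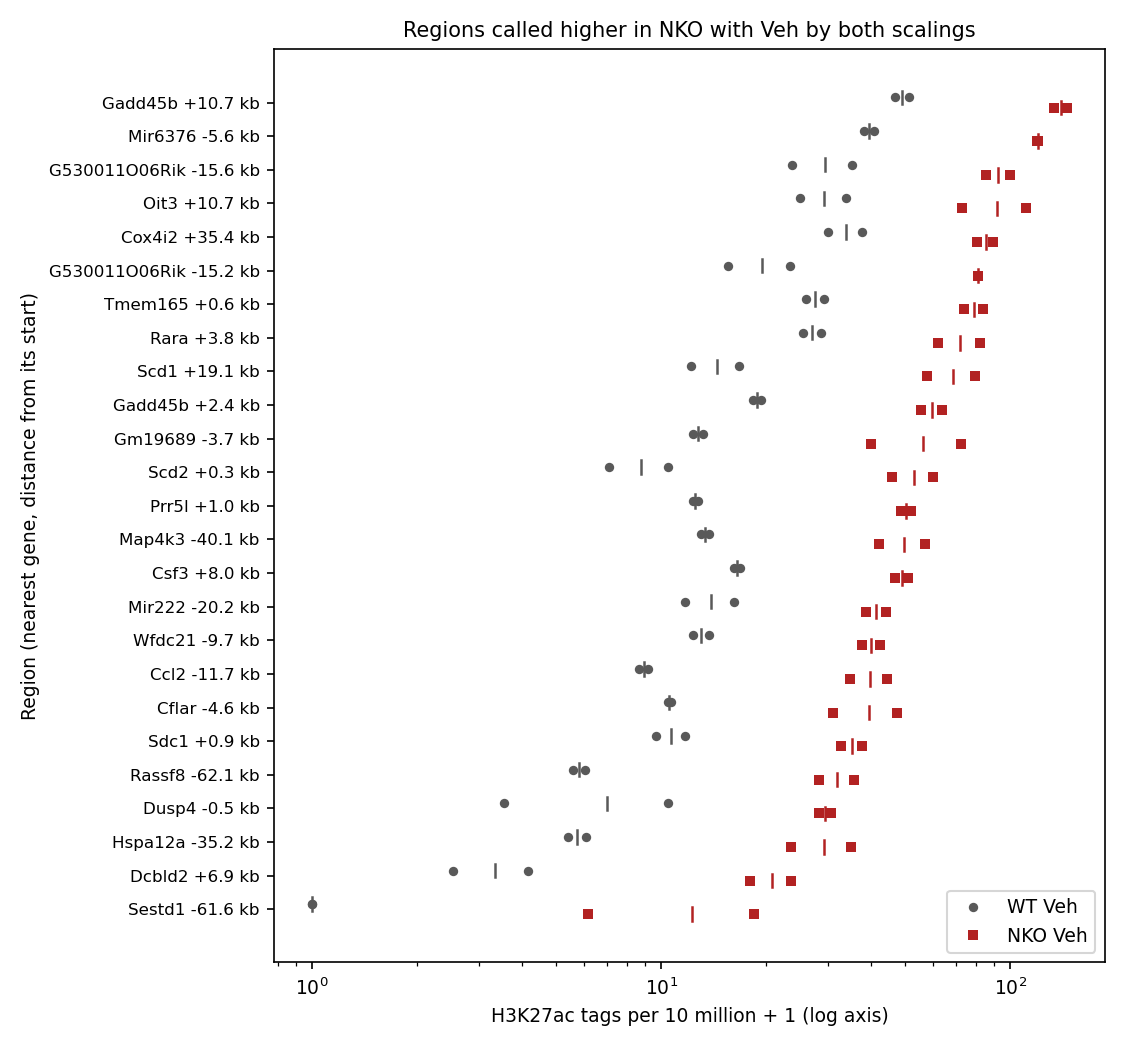
H3K27ac (tags per 10M plus 1, log axis) in the 2 WT Veh libraries (grey circles) and the 2 NKO Veh libraries (red squares) at the 25 regions called higher by both scalings, named by nearest gene and distance from its TSS; vertical ticks are group means. Values ran from 0 to 50.4 in WT and from 5.16 to 145 in NKO, and the regions were selected for this difference.

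Among the 155 regions called higher by library totals only, the 10 with the lowest p-values had smaller folds at higher levels. They lay near A230028O05Rik, Cdkn2aipnl, Ehd1, Hspb7, Kdm6b, Micall1, Mir760, Ptges, Tln1 and Ubash3b, with folds from 2.09 to 2.37, and all 10 had adjusted p-values under 0.05 with TMM but fell below its 2-fold limit. The promoter of Micall1 had 89.5 and 106 tags per 10M in WT and 220.0 and 216 in NKO (2.22-fold, edgeR adjusted p = 4.02e-05). An intron of Kdm6b, the gene of a demethylase of H3 lysine 27, had 78.8 and 62.1 in WT and 161 and 132 in NKO (2.09-fold, edgeR adjusted p = 0.000450). A region 24.1 kb upstream of Ptges, which encodes a prostaglandin E synthase, had 44.8 and 40.7 in WT and 92.9 and 95.8 in NKO (2.21-fold, edgeR adjusted p = 0.000782).

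Few regions were lower in NKO. In an intron of Ppard (chr17:28247689-28247959), the gene of the nuclear receptor PPARδ, WT had 15.8 and 15.8 tags per 10M and NKO 0.737 and 2.32 (9.45-fold lower, -3.24 ± 0.82 (SE) on the log2 scale, edgeR adjusted p = 0.0266 by totals and 0.0352 with TMM). In the first exon of Vegfa, an angiogenic growth factor gene, WT had 56.7 and 58.6 and NKO 18.4 and 23.2 (2.75-fold lower, edgeR adjusted p = 0.0134). In an intron of Pde1a, a phosphodiesterase gene, WT had 12.6 and 18.3 and NKO 0.737 and 5.22 (4.80-fold lower, edgeR adjusted p = 0.0231). At the D10Jhu81e region the WT libraries had 2.52 and 10.2 and both NKO libraries held 0 tags, at least 6.52-fold lower against a floor of 3 tags over the group. The last of the 5, in the ribosomal RNA repeat Rn45s (2.01-fold lower, edgeR adjusted p = 0.0326), belongs to a sequence present in many copies, so that its value is uncertain.

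With TMM 10 further regions were called lower, near Socs3, Limd2, Card9, Il10ra, Pisd-ps3, Mki67, Itga9, Kcnd3, Fpr2 and Cdt1. A region 9.54 kb from the TSS of Socs3, an inhibitor of cytokine signaling, had 65.6 and 81.5 tags per 10M in WT and 41.3 and 40.6 in NKO (log2 difference -0.85 by library totals and -1.15 with TMM, edgeR adjusted p = 0.00191 with TMM). Upstream of Il10ra, a chain of the interleukin 10 receptor, WT had 49.2 and 47.9 and NKO 23.6 and 15.7 (log2 difference -1.32, and -1.62 with TMM). The promoters of the cell cycle genes Mki67 (73.1 and 67.7 in WT, 34.7 and 37.7 in NKO) and Cdt1 (74.4 and 67.7 in WT, 42.0 and 44.1 in NKO) were lower in both NKO libraries, with adjusted p-values of 0.0276 and 0.0476 with TMM. Their log2 differences by library totals, -0.95 and -0.72, were not called. The region under Pisd-ps3 lay on an unplaced scaffold of repeated sequence and is uncertain.

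Other pathways were followed through lists of genes. Of 62 regions near 20 of 24 inflammatory genes, 2 were called higher by library totals (Ccl2 and Ccl3), 1 with TMM (Ccl2), and 1 lower with TMM (Socs3). Over all tested regions these shares were 0.973%, 0.135% and 0.0811%. The median log2 difference of the 62 was 0.37 (0.06 with TMM). With unadjusted p-values below 0.05, 12 of the 62 were higher and 2 lower by library totals, against 15.1% and 0.897% of all tested regions. The Ccl3 region, 9.03 kb from the TSS, had 30.9 and 31.6 tags per 10M in WT and 89.2 and 45.9 in NKO (2.13-fold, edgeR adjusted p = 0.0183). Of 66 regions near 15 of 16 AP-1 and immediate early genes, 2 were called higher (Jun and Egr3) and 0 with TMM, and the median was 0.47 (0.18 with TMM). With unadjusted p-values below 0.05, 24 of these regions were higher and 0 lower by library totals, against 15.1% and 0.897% of all tested regions. DESeq2 with library totals called 2. The Jun region, 109 kb upstream, had 12.0 and 16.3 in WT and 53.1 and 38.9 in NKO (3.20-fold, edgeR adjusted p = 0.00719). The Egr3 region, 11.4 kb upstream, had 17.7 and 13.8 in WT and 59.7 and 33.1 in NKO (2.94-fold, edgeR adjusted p = 0.0231).

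The list of cholesterol synthesis genes had 23 tested regions. The median log2 difference over these 23 was 0.80 (0.48 with TMM), the highest of the lists with 5 or more regions. Above 0 lay 22 of the 23, against 74.8% of all tested regions. With TMM 0 of the 23 were called. With unadjusted p-values below 0.05, 8 were higher and 0 lower by library totals, against 15.1% and 0.897% of all tested regions. DESeq2 with library totals called 2. Of 25 regions of osteoclast genes 1 was called higher, 8.28 kb upstream of Dcstamp, a gene of cell fusion (8.83 and 8.66 in WT, 35.4 and 35.4 in NKO, 4.02-fold, edgeR adjusted p = 0.0152), with a list median of 0.26. Of 39 regions of retinoid, vitamin D and thyroid hormone receptor genes and their targets 1 was called, in Rara, with a list median of 0.34. With unadjusted p-values below 0.05, 3 of the 25 osteoclast regions were higher and 0 lower, and 9 of these 39 were higher and 1 lower. edgeR called 0 of 18 regions of PPAR target genes (median 0.13), 0 of 37 of clock and Rev-erb genes (median 0.34) and 0 of 20 of the NCoR complex (median 0.38). Unadjusted p-values were below 0.05 at 3, 5 and 6 of these regions, all higher and 0 lower. Over all tested regions the shares were 15.1% higher and 0.897% lower. DESeq2 with library totals called 0 in each list. The Ppard region lies outside the PPAR target list.

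The labels and the cell type were checked on the same libraries. All 10 macrophage marker genes had tested regions, 22 in all, of which 1 was called higher by library totals, 8.63 kb from the TSS of Cebpa (6.93 and 10.2 tags per 10M in WT, 41.3 and 22.6 in NKO), and their summed level was 1106 and 1133 in WT and 1479 and 1276 in NKO. Of the markers of other cells, 1 of 8 neutrophil, 2 of 5 dendritic cell, 1 of 6 T cell, 1 of 4 mast cell, 1 of 4 fibroblast, 0 of 5 B cell and 0 of 3 erythroid genes had a tested region. Over all listed regions their summed levels were at most 36.9 for any list and library, with the defining genes S100a8, S100a9, Ly6g, Elane, Cd79a, Cd3e and Hbb-b1 without a tested region. In bulk material, fewer cells with a mark and less of the mark in each cell cannot be told apart. The Ncor1 promoter had 51.7 and 44.8 in WT and 58.3 and 70.2 in NKO (log2 difference 0.42, edgeR adjusted p = 0.410), but acetylation of a promoter does not measure the loss of floxed exons. Within 5 Mb of Lyz2, the locus that carries Cre, 2 of 98 tested regions were among the 180, and 1 of 98 within 5 Mb of Ncor1. The share over all tested regions was 0.973%.

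Libraries of the same genotypes with KLA were then read at the 180 regions. They did not enter the Veh difference itself, but they shared the filter and the estimate of spread with it, and 438 regions were called higher when the 4 Veh libraries were fitted alone. With KLA 18 of the 180 were called higher in NKO (10%, against 0.400% of all tested regions) and 1 lower (0.389% of all). Their median log2 difference with KLA was 0.34, against -0.04 over all regions, and 129 of the 180 were above 0. With TMM the count was 21 (0.508% of all), and leaving out single KLA libraries gave 4 to 10. The lowest count was without NKO KLA replicate 2, followed by 6 without WT KLA replicate 2, 8 without WT KLA replicate 1 and 10 without NKO KLA replicate 1. The 18 regions included Abca1, Rhoc, Gadd45b at 10.7 kb, Egr3, Oit3, Dot1l, Cdk6 and both regions of G530011O06Rik.

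The difference at Abca1 was 2.00 on the log2 scale with KLA (20.1 and 13.8 tags per 10M in WT, 78.0 and 57.6 in NKO, SE 0.31, edgeR adjusted p = 0.000274). At Gadd45b, 10.7 kb from the TSS, it was 1.43 (26.4 and 36.5 in WT, 83.9 and 85.4 in NKO, SE 0.23, edgeR adjusted p = 0.000408). At Rhoc, a small GTPase gene, it was 1.95 (20.1 and 21.4 in WT, 75.4 and 85.4 in NKO, SE 0.31, edgeR adjusted p = 0.000310). Scd1 had 7.55 and 8.27 in WT and 24.4 and 20.8 in NKO with KLA, a log2 difference of 1.52 that did not pass the threshold (edgeR adjusted p = 0.0595), and the 5′ UTR of Scd2 had 6.92 and 16.5 in WT and 26 and 23.6 in NKO (1.09, edgeR adjusted p = 0.210). Of the regions lower with Veh, the Ppard intron was also called lower with KLA (13.8 and 18.6 in WT, 0 and 2.08 in NKO, log2 difference -4.02, SE 0.89, edgeR adjusted p = 0.0120). It was the only one of the 15 regions lower with Veh, by either scaling, that was called with KLA.

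At other regions the difference between genotypes with KLA was smaller than at rest or of the opposite sign. The Csf3 region in the Med24 intron was the 1 region called lower with KLA. With KLA WT had 67.3 and 75.8 there and NKO had 32.9 and 26.4 (log2 difference -1.26, SE 0.29, edgeR adjusted p = 0.0157), so that the genotypes stood in the opposite order from that with Veh. This call was lost without WT KLA replicate 2 and without each NKO KLA replicate. At Gadd45b just past the end of the gene, WT with KLA had 103 and 116 and NKO 114 and 108 (log2 difference 0.02). In an intron of Ehd1, a gene of endocytic recycling, WT had 34.0 and 34.1 with Veh and 172 and 186 with KLA, while NKO had 90.7 and 65 with Veh and 102 and 135 with KLA, where the difference was not called (log2 difference -0.60, edgeR adjusted p = 0.0899). The interaction of genotype and KLA was called negative at 27 of the 180 regions (15%, against 0.670% of all tested regions), among them Csf3, Ehd1, Kdm6b, Gadd45b, Jun, Cflar and Map4k3. The interaction contains the Veh difference for which the regions were selected, so this share is a description and not a separate finding. With TMM it was called at 2, Csf3 and Ehd1 (0.0270% of all), and without single libraries at 2 to 36. The count was 2 without WT Veh replicate 2, 3 without WT Veh replicate 1, 6 without NKO Veh replicate 1, 7 without NKO KLA replicate 2, 9 without WT KLA replicate 2 and 11 without NKO KLA replicate 1. Without WT KLA replicate 1 it was 30 and without NKO Veh replicate 2 it was 36.

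**Figure D4:**
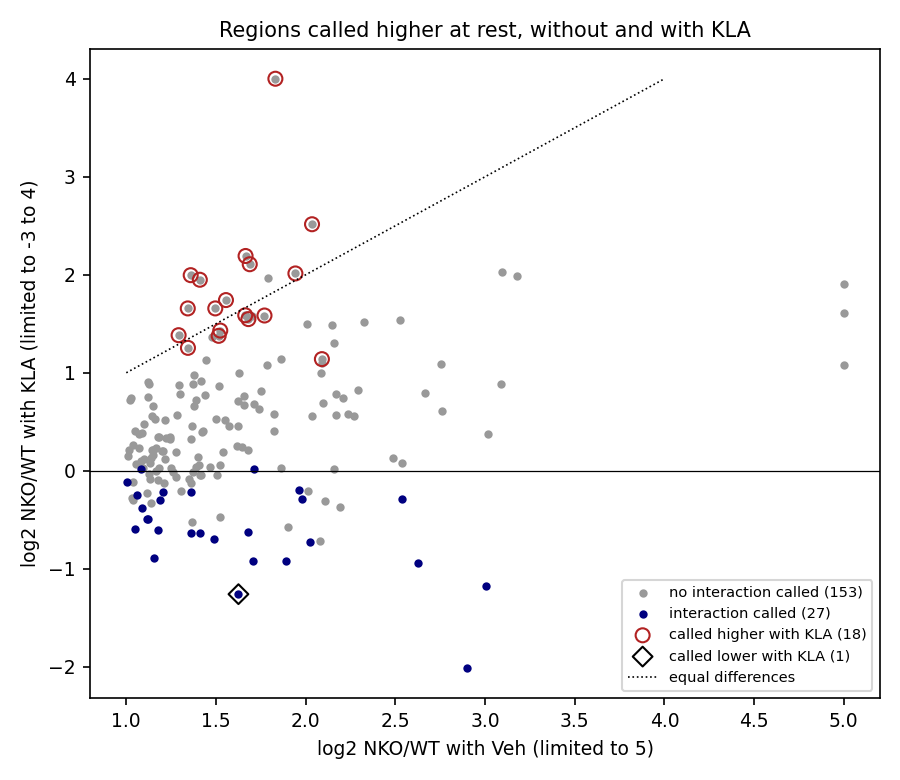
Log2 difference of NKO against WT with Veh (horizontal axis, limited to 5) and with KLA (vertical axis, limited to the range of -3 to 4) at the 180 regions called higher with Veh, by library totals. Blue points are the 27 regions with a called interaction, red rings the 18 called higher with KLA, the diamond the 1 called lower (Csf3), and the dotted line marks equal differences; 129 points lie above 0 on the vertical axis.

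The median levels of the 180 regions put these values side by side. They were 17.8 tags per 10M in WT and 48.9 in NKO with Veh, and 28.0 in WT and 35.1 in NKO with KLA. Over all tested regions the medians were 17.8, 22.6, 19.2 and 18.4. The 180 regions were selected for the difference between these Veh libraries, so the selection itself sets their Veh medians apart. A smaller difference with KLA is favoured by the same selection. In separate experiments on cells with intact NCoR, 112 of the 180 regions had a matching region with its centre within 500 bp. With KLA 11 of them (9.82%) gained H3K27ac in cells treated with the solvent DMSO, against 6.92% of all matched regions, and 11 (9.82%) in Pgc1b flox cells, against 5.09%. Among the 79 distal matched regions 7 gained it in DMSO cells (8.86%, against 9.32% of all distal matched regions). In Pgc1b flox cells 8 of these 79 did (10.1%, against 7.82%). The Ccl2 region was called in both, and in DMSO cells its log2 difference with KLA was 2.17. Called lower with KLA were 22 of the 112 in DMSO cells (19.6%, against 21% of all matched regions) and 17 in Pgc1b flox cells (15.2%, against 19%). Of the 79 distal ones 21 were lower in DMSO cells (26.6%, against 32.8%) and 16 in Pgc1b flox cells (20.3%, against 26.9%).

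The position of the regions was examined next. Of the 180 regions 130 (72.2%) lay more than 2000 bp from a TSS, against 46.5% of all tested regions, and 20 of the 25 called by both scalings (80%). By annotation 79 were in introns, 63 were intergenic and 25 were in promoters. An NCoR peak of WT cells with Veh lay within 500 bp of 155 of the 180 regions (86.1%, against 74.4% of all tested) and an HDAC3 peak within 500 bp of 151 (83.9%, against 72.7%). Among distal regions these shares were 91.5% against 89.2% for NCoR and 89.2% against 88.9% for HDAC3, so that called and background distal regions were closer to each other than all called and all tested regions. Within 100 bp the distal shares were lower than the background, 68.5% against 78.7% for NCoR and 68.5% against 78.8% for HDAC3. The median level of the nearest NCoR peak at distal regions was 92.9 tags per 10M, against 104 over all distal regions. For PU.1, the lineage factor of macrophages, the distal share within 500 bp was 73.1% against 83.9%, and for the acetyltransferase p300 it was 90.8% against 90.7%. Within 100 bp the distal shares were 53.1% against 70.4% for PU.1 and 66.9% against 80.75% for p300.

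NCoR levels at the regions described above covered a wide range. The nearest NCoR peak held 195 tags per 10M at the Scd1 region, 188 at the Abca1 intron, 402 at the Ccl2 region and 240.2 at Rara. At Scd2 it held 280 for the region 9.42 kb upstream, 42.1 for that 26.6 kb upstream and 20.7 for the 5′ UTR. The median over all tested regions with an NCoR peak within 500 bp was 74.0. At Gadd45b it held 151 at the region 10.7 kb from the TSS and 5.33, at a distance of 320 bp, for the region past the end of the gene. The regions of Tmem165, Sdc1, Rassf8 and G530011O06Rik, called higher, and of Vegfa, called lower, had no NCoR peak within 500 bp. The Ppard intron had one of 185 at 3 bp from its centre. High and low levels thus occurred among regions that were higher in NKO.

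**Figure D5:**
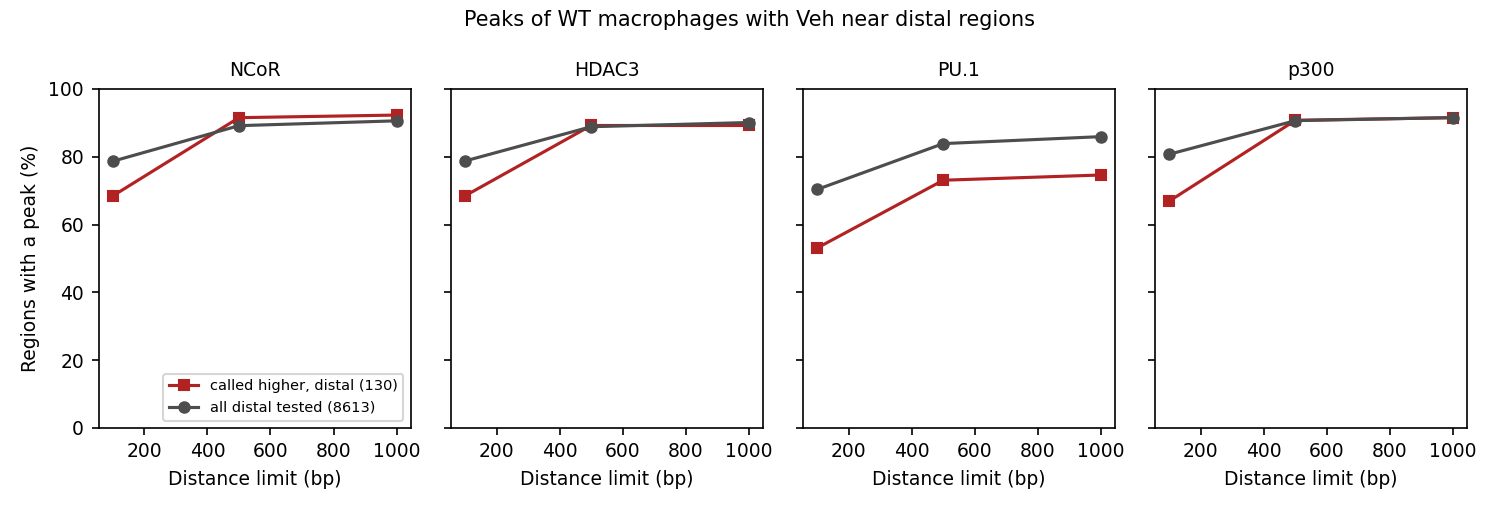
Share of distal regions with a peak of NCoR, HDAC3, PU.1 or p300 in WT cells with Veh within 100, 500 and 1000 bp of the centre, for the 130 distal regions called higher (red squares) and all 8613 distal regions tested (grey circles). The shares for NCoR, HDAC3 and p300 were close at 500 bp (91.5% against 89.2% for NCoR), and those for PU.1 were lower among the called regions at all 3 distances.

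Motif matches within 100 bp of the centre were counted on both strands. DR1 with at most 2 mismatches was found in 6 of the 180 regions (3.33%, against 2.39% of all tested and 3.24% of distal regions) and DR4 in 3 (1.67%, against 1.83% and 2.64%). The 6 DR1 regions included both Gadd45b regions printed above and Dcstamp. The AP-1 element TGANTCA was found in 41 regions (22.8%, against 14.9% of all tested), and in 28.5% of the distal called regions against 26.8% of all distal regions. The PU.1 element GAGGAAGT was found in 5.56% against 7.55% of all tested regions, and the E-box CACGTG in 1.67% against 6.30%. Among distal regions these shares were 4.62% of called against 12.4% of all for PU.1 and 1.54% against 4.38% for the E-box. These shares are descriptions of letters in a window and were not tested. By the sets of open chromatin in which the regions had been found, 78 of the 180 (43.3%) came only from sets of cells treated with KLA, against 28.7% of all tested regions, and among distal regions the shares were 44.6% and 36.5%.

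A second floxed gene with the same Cre and an inhibitor of HDAC3 gave values at the 112 matched regions. In cells with floxed Pgc1b, with Cre against without Cre and with Veh, edgeR called 0 of the 112 regions in either direction by library totals or with TMM, against 0.0920% of matched regions higher and 0.127% lower. With unadjusted p-values below 0.05, 2 of the 112 were higher (1.79%, against 1.15% of all matched regions) and 40 lower (35.7%, against 39.7%), and the median log2 difference was -0.16, against -0.22 over all matched regions. RGFP966, an inhibitor of HDAC3, was given with KLA, so its values are not at rest. Of the 112 regions 21 were higher with RGFP966 than with DMSO (18.8%, against 15.5% of all matched regions) and 6 were lower (5.36%, against 15.6%). Among the 79 distal matched regions 20 were higher (25.3%, against 30.4%), and with TMM 16 of the 112 were higher (14.3%, against 8.54% of all matched regions) and 14 lower (12.5%, against 30.2%). The Egr3 region (log2 difference 1.82), the Dcun1d5 region 38.5 kb from its TSS (1.71) and the Sestd1 region (1.41) were among the regions higher with RGFP966. The Scd1, Abca1 and Ccl2 regions, at 0.20, -0.59 and 0.60, were not called. The Abca1 region was lower with RGFP966 (edgeR adjusted p = 0.0132) but below the fold that a call required. With TMM its log2 difference was -0.94 (edgeR adjusted p = 5.96e-08), also below that fold.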

How the data were processed

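The authors aligned ChIP-seq reads to mm10 and deposited tag counts per region (Bowtie2 and HOMER per the submitters' processing notes, versions not given in the sources used here). Counts were not normalized and held at most 3 tags per position, per the file headers. The regions were open chromatin peaks, reduced to windows of 1000 bp in the Pgc1b and RGFP966 tables. Chromatin was fixed with formaldehyde for H3K27ac, and with disuccinimidyl glutarate before formaldehyde for NCoR, HDAC3, PU.1 and p300. The 8 WT and NKO libraries held 13.6 to 19.6 M tags (WT Veh 15.9 and 19.6, NKO Veh 13.6 and 17.2).

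Counts were fitted over all 8 libraries by the two-sided quasi-likelihood F-test of edgeR 4.0.16 under R 4.3.3, with Benjamini-Hochberg adjustment, scaled by library totals from the headers and, beside it, with TMM. Regions with 16 or more tags in 1 library were kept, and calls needed an adjusted p-value under 0.05 and over 2-fold. SEs were derived from the F statistic. The fit was tested on simulated data. Peaks of NCoR, HDAC3, PU.1 and p300 with 4 or more tags in WT Veh libraries, and regions of other experiments, were matched within 500 bp of the centre. Distal means over 2000 bp from the listed TSS. Sequences and motifs were read from GRCm38.p6 with pysam 0.24.0 in Python 3.11.15, and 96.6% of 6053 promoter regions implied a start within 100 bp of the RefSeq start.

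Named regions were those called higher by both scalings, those called lower by either, those of genes with 2 or more regions called higher, called regions of listed genes (and for LXR, PPAR and NCoR complex genes otherwise the region with the highest level), Ncor1 and Lyz2, and the 10 with the lowest p-values called by totals only. Regions given only as KLA or RGFP966 examples (Rhoc, 1 Elovl5 region, other Abcg1 regions) were chosen after their values were seen. The members, lists and tests were chosen with earlier results of these data known. Some regions are not reported here. Markers specific to sex had no region in the table. Same-numbered replicates did not deviate together (r from -0.013 to 0.002 over regions) and were treated as unpaired. The labels call the libraries biological replicates. Alternatives were other size factors, DESeq2 1.42.0, other filters, a replicate block, 4 Veh libraries only, other distances and each library left out. Leave-one-out fits with TMM and the KLA contrasts of the other experiments were added after seeing the data.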

Additional observations from a re-analysis of the deposited data

Results flagged for a closer look

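The difference between genotypes was tested between Veh and KLA by the interaction term, and 27 of the 180 regions called higher with Veh had a lower difference with KLA. Since these regions were selected for a large difference with Veh, a lower difference with KLA is favoured by the selection, and with TMM 2 of the 27 were called. Among the regions named above, the interaction was -2.88 on the log2 scale at Csf3 (edgeR adjusted p = 0.000152, and 0.00115 with TMM) and -1.78 at Ehd1 (edgeR adjusted p = 0.000597, and 0.00620 with TMM). The value was -1.31 at Kdm6b, -1.69 at Gadd45b just past the end of the gene, -1.57 at Cox4i2 (in the Bcl2l1 intron), -2.30 at Jun and -2.15 at Map4k3. It was -2.27 at Cflar, -2.83 at Hspa12a (in an intron of Shtn1) and -1.07 at Cdkn2aipnl. Their adjusted p-values by edgeR were between 0.00380 (Kdm6b) and 0.0395 (Hspa12a and Cdkn2aipnl), and none of these 8 was called with TMM.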

How the results depend on the processing

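Of the 180 regions higher and 5 lower with Veh by library totals, TMM gave 25 and 15, DESeq2 size factors in edgeR 25 and 14, and the DESeq2 Wald test 22 and 10 with its own size factors and 152 and 3 with library totals. The median log2 difference of all regions was 0.0046, 0.011 and 0.011 in the first 3 of these fits. The 4 Veh libraries alone gave 438 and 14, no filter 228 and 11, a minimum of 4 tags 207 and 8, distal regions only 134 and 3, and no fold minimum 293 higher. With a replicate block 163 were higher and 5 lower, 162 of them shared, with 18 higher with KLA and 23 interactions, so the block changed none of these counts by over 1.5 times.

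Single libraries left out gave 8 to 204 higher, 0 to 7 lower and medians of 0.22 to 0.35 by library totals, and 0 to 10 higher and 0 to 5 lower with TMM. With TMM, edgeR called 0 higher without WT Veh replicate 1 (395 at an unadjusted p-value under 0.05 and over 2-fold), 2 without WT Veh replicate 2 and 10 without each NKO Veh replicate. The single count of 0 lower by library totals, without WT Veh replicate 2, had 63 by the same unadjusted limit, and the 0 lower with TMM in that fit had 254. Of the 180, 4 to 10 were higher and 0 to 1 lower with KLA, and 2 to 36 had an interaction (2 with TMM). Unadjusted differences in the fits without a Veh library went in both directions. The RGFP966 count of lower regions was 14 with TMM.

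Within 100 bp, 63.9% of regions had an NCoR and 64.4% an HDAC3 peak. Of the regions called by both scalings 80% had an NCoR peak within 500 bp and 80% were distal. DR1 was found in 0% and DR4 in 0.556% with at most 1 mismatch, and within 250 bp DR1 in 10.6%, DR4 in 5% and AP-1 in 35.6%. Over all tested regions the shares within 250 bp were 5.99%, 4.82% and 21.1%. Among distal regions they were 11.5% of called against 7.71% of all for DR1, 6.15% against 6.17% for DR4 and 42.3% against 35.6% for AP-1. Of the 92 named regions 55 were called in the main fit. Of 1253 alternative values of the 92, 994 kept direction and call, 219 lost the call, 40 gained it and 0 reversed. A region uncalled in the main fit that stayed uncalled counts as kept, so the 994 do not measure the stability of the calls alone. The causes were not tested. With 2 libraries a group, p-values rest on the spread pooled over the 4 groups, and where a group was left with 1 library that library was assumed to vary like the others.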
